A study of Rattus norvegicus with 9 samples.

Results

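The platelet and megakaryocyte genes described here were a list of 10 genes, Pf4, Ppbp, Itga2b, Itgb3, Gp1bb, Gp5, Gp6, Gp9, Treml1 and Tubb1, chosen by name. A gene was taken as measured where the array's annotation table gave it a probe with that gene alone, which held for 5 of the 10, among 14497 genes measured in all. These were Pf4, Ppbp, Itgb3, Gp5 and Gp9, with 1 probe each. Gp1bb stood only on 2 probes that also name the neighbouring gene Septin5, so no value is given for it. For Itga2b, Gp6, Treml1 and Tubb1 the table named no probe, and they were not analysed here.

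The study measured RNA of whole lung in 7 Wistar rats, 3 with metabolic syndrome (MetS) and 4 controls. From weaning, the MetS rats had a 30% sucrose solution as their only drink for 24 weeks, and the controls had water. Both groups ate the same chow and were fasted for 7 hours before death. The MetS rats were male per the labels, the sex of the controls is not stated there, and no genetic change is named for either group. One whole-transcript array was hybridised per animal, with a second, technical array for MetS animal 1 and for control animal 1. The 2 arrays of an animal were averaged, so n counts animals, and with so few of them every value below has limited precision.

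Platelets are cell fragments without a nucleus that megakaryocytes shed, and they carry RNA inherited from those cells. Megakaryocytes lodge in the lung's capillaries as well as in bone marrow and release platelets there, so lung RNA holds both sources beside the lung's own cells. Platelets catch on injured vessel walls through the GPIb-IX-V receptor, which binds von Willebrand factor. They are activated through the collagen receptor GPVI, the product of Gp6, clump through the integrin αIIbβ3, and release chemokines from their granules. In whole tissue, fewer cells of a type and less RNA per cell cannot be told apart.

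The 9 arrays had nearly equal medians, between 7.64 and 7.69 on the log2 scale, and SDs over all probes between 1.76 and 1.94. By animal the SD was lowest in controls 2 and 3, at 1.77 and 1.76, and highest in MetS animal 1, at 1.93. The 10 lung epithelial markers, among them the surfactant genes Sftpc and Sftpb, averaged between 12.32 and 12.42 in every animal, so the tissue carried its label's markers. The control means of the 5 platelet genes lay between the 56.6 and the 79.8 percentile of the control means of all 28826 probes. All 5 were thus above the 25th percentile, and no filter on low values was applied to the main test.

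No platelet gene passed the test between MetS and control lung. The nearest was Pf4, which codes for platelet factor 4, with a mean 1.34-fold higher in MetS (95% interval 0.975 to 1.83). Itgb3, the β3 integrin subunit, was at 1.12-fold, Gp9 at 1.11-fold, Gp5 at 0.981-fold and Ppbp, the precursor of the neutrophil-attracting peptide NAP-2, at 0.951-fold of control. The animals of the groups overlapped for all 5 genes, whereas 11.7% of all probes had groups that did not overlap. With limma, 0 of the 5 passed an adjusted p under 0.05, as did 0.0% of all probes, and 0 of the 5 had an unadjusted p under 0.05 against 13.7% of all probes. The median of the 5 log2 differences was 0.14, beside 0.01 over all probes and 0.04 over all measured genes.

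**Figure D1:**
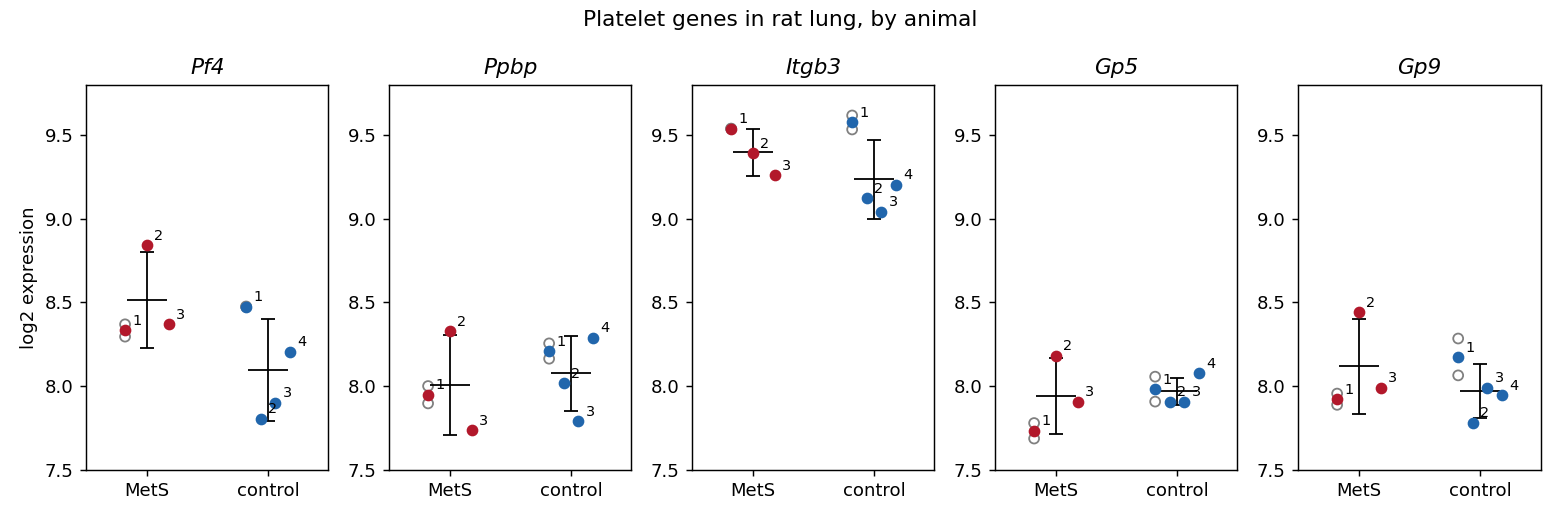
The log2 expression value of each platelet gene (y axis) is plotted by group (x axis), with 1 filled point per animal, numbered as in the text, and a bar for the mean and SD. Open circles are the 2 arrays of MetS animal 1 and of control animal 1. MetS animal 2 holds the highest value for Pf4, Ppbp, Gp5 and Gp9, and the groups overlap in each panel.

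Pf4 and Ppbp are CXC chemokines stored in platelet α-granules, and both genes are made in megakaryocytes. They are direct neighbours on rat chromosome 14 in the RefSeq annotation of assembly GRCr8. Pf4 read 8.33, 8.84 and 8.37 in MetS animals 1 to 3 and 8.47, 7.80, 7.90 and 8.20 in controls 1 to 4. Controls 2, 3 and 4 lay below every MetS animal, and control 1 lay inside the MetS range. The means were 8.51 ± 0.29 (SD, n = 3) and 8.10 ± 0.30 (SD, n = 4), a log2 difference of 0.42 with a standard error of 0.19 (limma, unadjusted p = 0.0666, adjusted p = 0.389).

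In MetS animals 1 to 3 Ppbp read 7.95, 8.33 and 7.74, and in controls 1 to 4 8.21, 8.02, 7.79 and 8.29. MetS animal 2 was the highest and MetS animal 3 the lowest of all 7, so the MetS values spanned those of the controls. The means were 8.004 ± 0.30 (SD, n = 3) and 8.08 ± 0.22 (SD, n = 4), with a log2 difference of -0.07 and a 95% interval from -0.47 to 0.33 (limma, adjusted p = 0.851). The neighbouring chemokine genes therefore had mean differences of opposite sign, neither of them past the test, and the difference between them was not tested.

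Itgb3 codes for the subunit that pairs with αIIb, the product of Itga2b, on platelets, and with αV on endothelial cells, macrophages and other cells. It is thus the least platelet-specific of the 5 genes. Itgb3 read 9.54, 9.39 and 9.26 in MetS and 9.58, 9.12, 9.04 and 9.20 in the controls. Control 1 was the highest animal, while the other controls were below all MetS animals. The means were 9.40 ± 0.14 (SD, n = 3) and 9.24 ± 0.24 (SD, n = 4), a log2 difference of 0.16 with a 95% interval from -0.16 to 0.48 (limma, adjusted p = 0.592).

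Gp5 and Gp9 code for glycoproteins V and IX, leucine-rich repeat proteins of the GPIb-IX-V complex, and glycoprotein IX is needed for the complex to reach the cell surface. Gp9 read 7.92, 8.44 and 7.99 in MetS and 8.17, 7.78, 7.99 and 7.95 in the controls. MetS animal 2 stood above the rest, and MetS animals 1 and 3 lay among the controls. The means were 8.12 ± 0.28 (SD, n = 3) and 7.97 ± 0.16 (SD, n = 4), and the log2 difference was 0.14 with a 95% interval from -0.20 to 0.49 (limma, adjusted p = 0.649). Gp5 read 7.73, 8.18 and 7.91 in MetS and 7.98, 7.91, 7.91 and 8.08 in the controls. The MetS animals held both its highest and its lowest value, with a mean of 7.94 ± 0.23 (SD, n = 3) against 7.97 ± 0.08 (SD, n = 4), and the log2 difference was -0.03 with a 95% interval from -0.29 to 0.23 (limma, adjusted p = 0.918). For Gp5, 4 of the 9 arrays stood at the same value of 7.91 within a tolerance of 1e-06, and 8.78% of all probes had 4 or more arrays at 1 value. Gp1ba, which codes for the subunit of the complex that binds von Willebrand factor, is not in the list of 10. It was dim, at the 25.6 percentile of probe means, and read 6.17, 6.98 and 6.53 in MetS and 6.63, 6.47, 6.36 and 6.47 in controls. Its highest animal was also MetS animal 2, and its log2 difference was 0.08 (limma, adjusted p = 0.85).

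The technical arrays show how far repeated measurement moves these values. In MetS animal 1 the 2 arrays differed by 0.074 on the log2 scale for Pf4, 0.10 for Ppbp, 0.00077 for Itgb3, 0.093 for Gp5 and 0.067 for Gp9. In control 1 they differed by 0.0024 for Pf4, 0.092 for Ppbp, 0.084 for Itgb3, 0.15 for Gp5 and 0.22 for Gp9. Over all probes the median gap was 0.0609 in MetS animal 1 and 0.0754 in control 1. For Pf4 the SD between animals within the groups, 0.297, was above both of its gaps, whereas for Gp9 the gap of control 1 equalled the SD between animals, 0.218, at 2 digits. For Gp5 the gap of control 1, 0.15, was close to its SD of 0.156. A gap is the difference between 2 arrays and not an SD, so gap and SD are not on the same scale. An SD within groups at least that of Pf4 was seen for 12.1% of all probes.

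**Figure D2:**
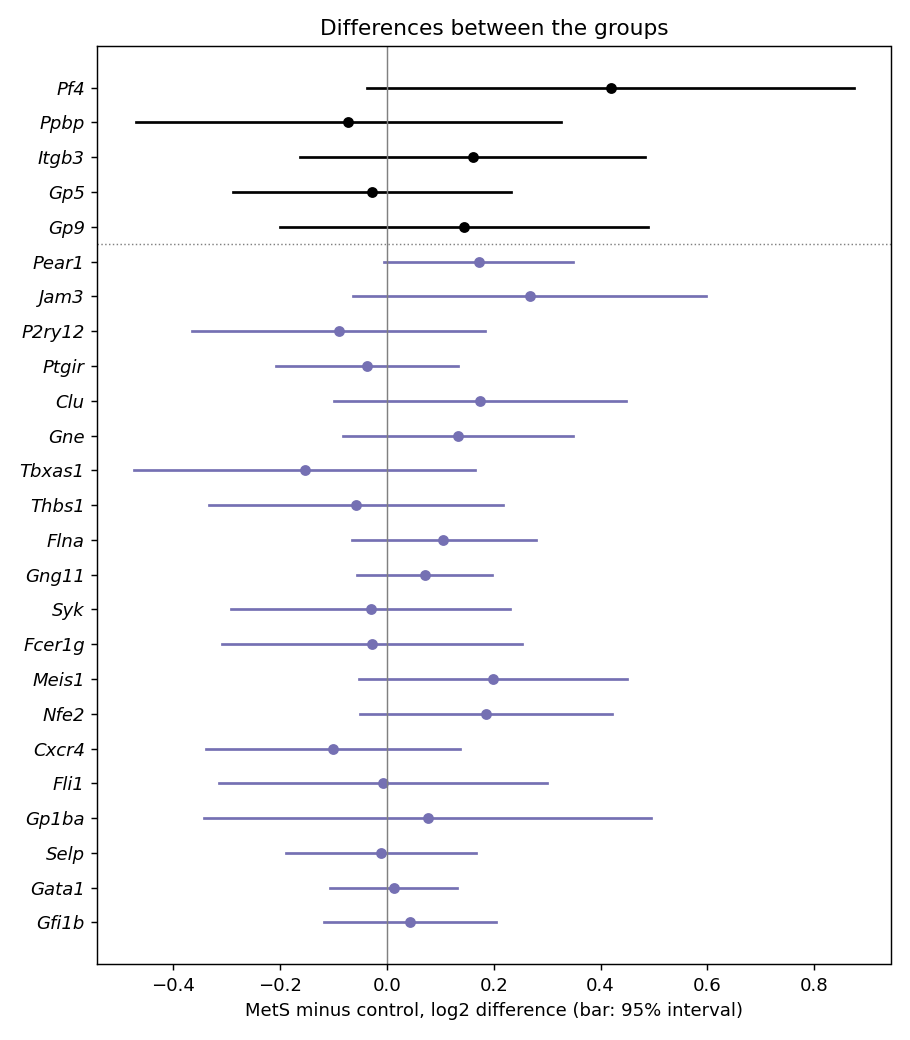
Each point is the log2 difference of a gene, MetS minus control (x axis), and each bar is its 95% interval from the limma fit. The platelet genes of the list are in black, and other platelet and megakaryocyte genes taken by rule are in purple. Every interval shown includes 0, and that of Pf4 runs from -0.04 to 0.88.

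The 5 genes also varied between the animals of a group. Averaged over the 5 after centring each gene on its mean over animals, the level was 0.31 in MetS animal 2, -0.03 in MetS animal 1 and -0.07 in MetS animal 3. In controls 1 to 4 it was 0.16, -0.20, -0.20 and 0.02. MetS animal 2 and control 1 were therefore the high animals and controls 2 and 3 the low ones. MetS animal 2 was the highest animal for 4 of the 5 genes, and for 15.6% of all probes. The exception was Itgb3, highest in control 1.

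Correlations over the 7 animals were computed for the 10 pairs of these genes, with exact two-sided permutation tests adjusted over the 10. Pf4 with Gp9 had the highest Pearson r, 0.866 (exact permutation p = 0.0123, adjusted p = 0.123), and its Spearman rho was 0.75 (exact permutation p = 0.0663, adjusted p = 0.221). When the 2 animals with the most extreme Pf4 were left out, r was 0.421 over the 5 that remained, which span a narrower range of Pf4. Ppbp with Gp5 had an r of 0.726 (exact permutation p = 0.0619, adjusted p = 0.229) and a rho of 0.815 (exact permutation p = 0.0357, adjusted p = 0.221), and r was 0.69 without the 2 animals of most extreme Ppbp. Gp5 with Gp9, of the same receptor complex, had an r of 0.691 (exact permutation p = 0.0917, adjusted p = 0.229) and a rho of 0.63 (exact permutation p = 0.143, adjusted p = 0.357). Its r was 0.229 without the 2 animals of most extreme Gp5. Pf4 with Itgb3 had an r of 0.708 (exact permutation p = 0.076, adjusted p = 0.229) and a rho of 0.786 (exact permutation p = 0.048, adjusted p = 0.221), and r was 0.846 without the 2 animals of most extreme Pf4. The pair with the lowest r was Itgb3 with Gp5, at -0.0784 (exact permutation p = 0.864, adjusted p = 0.864), with a rho of 0.111 (exact permutation p = 0.84, adjusted p = 0.84). Its r was 0.758 without the 2 animals of most extreme Itgb3. Pf4 with Ppbp had an r of 0.501 (exact permutation p = 0.257, adjusted p = 0.368) and a rho of 0.357. Its r was 0.33 without the 2 animals of most extreme Pf4. After each gene was centred within its group, r was 0.884 for Pf4 with Gp9, 0.796 for Pf4 with Ppbp, 0.785 for Gp5 with Gp9, 0.627 for Pf4 with Itgb3 and -0.0388 for Itgb3 with Gp5. It was 0.728 for Pf4 with Gp5, 0.723 for Ppbp with Gp5, 0.635 for Ppbp with Gp9, 0.491 for Ppbp with Itgb3 and 0.344 for Itgb3 with Gp9. The r values after centring were not tested. No pair passed the adjusted threshold, and every gene of an animal comes from the same array or arrays and the same normalization.

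The genes most like the 5, by Pearson r with their average over the 7 animals among 11995 other measured genes, were Lrrc18 (0.982), the ribonucleotide reductase subunit gene Rrm2 (0.975), the phosphatase gene Mtmr3 (0.968), the cytokine signalling inhibitor gene Socs1 (0.967) and the membrane skeleton gene Epb41l1 (0.966). In each of them MetS animal 2 was the highest animal, as Lrrc18 at 8.20 against 7.55 to 8.02 in the other animals shows. They were picked for following an average that peaks in that animal, so this peak is not a separate result. With 7 animals and 11995 genes compared, high r values are reached by selection, and they were not tested. Among the platelet and megakaryocyte genes outside the list, Rgs18, a regulator of G protein signalling in platelets, came closest with an r of 0.90 and is named for that reason, outside the rule for named genes. It read 8.75, 9.17 and 8.49 in MetS and 9.14, 8.69, 8.45 and 8.83 in controls, high in the same 2 animals.

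As a description planned for the list, the promoters of its genes in RefSeq were searched on both strands for textbook motifs of megakaryocyte transcription. These were AGATAA, of the kind that the factor GATA1 binds, and AGGAAG, of the kind that ETS factors such as FLI1 bind. No match of either motif overlaps a match of the other in the windows shown. The table (assembly GRCr8) held 8 of the 10 genes, without Pf4 and Itgb3, and the 3 measured ones are shown over the 250 bases before the start of the gene, 5′ to 3′ on the gene's strand, with matches in capitals.
Gp5 (chr11:83948257-83948506, plus strand): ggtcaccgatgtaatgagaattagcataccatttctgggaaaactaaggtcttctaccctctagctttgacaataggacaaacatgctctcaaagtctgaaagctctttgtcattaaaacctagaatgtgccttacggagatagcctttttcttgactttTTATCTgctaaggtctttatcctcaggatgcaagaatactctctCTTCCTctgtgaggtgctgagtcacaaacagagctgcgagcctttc
Gp9 (chr4:121792592-121792841, plus strand): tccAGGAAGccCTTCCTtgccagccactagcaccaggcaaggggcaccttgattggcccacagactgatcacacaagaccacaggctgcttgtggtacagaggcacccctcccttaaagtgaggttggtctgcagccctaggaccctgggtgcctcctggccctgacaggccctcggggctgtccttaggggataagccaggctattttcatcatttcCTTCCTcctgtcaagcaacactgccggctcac
Ppbp (chr14:17587300-17587549, minus strand): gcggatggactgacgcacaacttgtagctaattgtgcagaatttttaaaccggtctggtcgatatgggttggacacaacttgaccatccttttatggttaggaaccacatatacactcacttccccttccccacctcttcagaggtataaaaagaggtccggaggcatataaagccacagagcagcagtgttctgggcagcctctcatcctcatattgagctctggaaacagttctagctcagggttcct
Gp5 had 1 AGATAA match, which begins 90 bases before the start, and 1 AGGAAG match, at 46 bases. Gp9 had 3 AGGAAG matches, beginning 247, 239 and 32 bases before the start, and the window of Ppbp held neither string. Of the 8 genes, 2 held AGATAA, Gp5 and Gp6, against 10.05% of 27457 promoters of the same length, 1 per gene. AGGAAG was held by 4 of the 8, Gp5, Gp9, Gp6 and Tubb1, against 29.37%, and both motifs by 2 of the 8 against 2.961%. These matches are letters in a window and do not show that a factor binds there.

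Other genes of platelets and megakaryocytes were taken from 4 lists with 68 genes, of which 60 were measured. None passed the limma test after adjustment (0 higher and 0 lower; smallest adjusted p = 0.371), and 0 of the 60 had an unadjusted p under 0.05. In MetS 46 had the higher mean and 14 the lower, a share to be read beside 8995 of 14497 measured genes with the higher mean. Their median log2 difference was 0.05, against 0.04 over all measured genes. The groups did not overlap for 2 of the 60, Mpig6b, which codes for an inhibitory receptor of megakaryocytes and platelets, and Gng11, against 11.7% of all probes. Mpig6b, named for this count, read 7.03, 7.09 and 7.19 in MetS and 6.96, 6.99, 7.01 and 6.99 in controls (limma, adjusted p = 0.43).

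Of the 17 measured surface receptors, 10 had the higher and 7 the lower mean in MetS, with log2 differences from -0.09 to 0.27. Pear1, a receptor that signals on platelet contact, stood at 8.91 ± 0.12 (SD, n = 3) against 8.73 ± 0.06 (SD, n = 4) (limma, adjusted p = 0.371). Jam3, a junctional adhesion molecule of platelets and endothelium, stood at 8.66 ± 0.07 against 8.39 ± 0.26, with controls 2 and 3 at 8.33 and 8.05 and the other animals between 8.58 and 8.72. P2ry12, the ADP receptor that clopidogrel blocks, stood at 8.38 ± 0.12 against 8.47 ± 0.19, and Ptgir, the prostacyclin receptor that restrains platelets, at 7.87 ± 0.12 against 7.91 ± 0.05. F2rl2, a thrombin receptor chosen after its values were seen, read 7.73, 8.52 and 8.06 in MetS and 8.32, 8.06, 7.89 and 8.26 in controls. It was highest in MetS animal 2, as 4 of the 5 genes of the list were, but lowest in MetS animal 1.

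Of the 12 measured genes of granules and enzymes, 9 had the higher and 3 the lower mean. Clu, which codes for the granule protein clusterin, stood at 11.63 ± 0.13 against 11.45 ± 0.19, and Gne, an enzyme of sialic acid synthesis, at 9.38 ± 0.06 against 9.25 ± 0.15. Tbxas1, the thromboxane synthase gene, stood at 8.83 ± 0.26 against 8.98 ± 0.15, and Thbs1, the thrombospondin gene, at 9.96 ± 0.10 against 10.01 ± 0.20. Selp, which codes for the adhesion molecule P-selectin of platelets and endothelium, stood at 6.87 ± 0.11 against 6.88 ± 0.08. Alox12, the platelet lipoxygenase gene, which was chosen after its values were seen, was highest in MetS animal 2 and control 1, at 7.94 and 7.92, with the others between 6.95 and 7.45.

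Of the 16 measured genes of signalling and the cytoskeleton, 14 had the higher and 2 the lower mean, with log2 differences no wider than 0.17. Flna, the actin crosslinker filamin A, stood at 11.59 ± 0.04 against 11.49 ± 0.10. Gng11, a G protein γ subunit, stood at 8.39 ± 0.05 against 8.32 ± 0.01, with every MetS animal above every control and a log2 difference of 0.07 (limma, adjusted p = 0.55). The kinase gene Syk and Fcer1g, the signalling chain of the collagen receptor, stood at 8.63 ± 0.15 against 8.66 ± 0.16 and at 11.93 ± 0.23 against 11.96 ± 0.11.

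Of the 15 measured regulators of megakaryocytes, 13 had the higher and 2 the lower mean. Nfe2, a factor needed for platelet release, read 8.34, 8.60 and 8.43 in MetS and 8.40, 8.23, 8.09 and 8.36 in controls, with a log2 difference of 0.19 and a 95% interval from -0.05 to 0.42 (limma, adjusted p = 0.435). Meis1, a homeobox factor of stem cells and megakaryocytes, stood at 9.26 ± 0.16 against 9.06 ± 0.14 (limma, adjusted p = 0.435). Gfi1b stood at 7.99 ± 0.06 against 7.95 ± 0.08 and Fli1 at 9.44 ± 0.24 against 9.45 ± 0.15. Cxcr4, the receptor for the niche chemokine Cxcl12, stood at 8.96 ± 0.20 against 9.06 ± 0.07. Gata1 gave 6 of 9 arrays at the same value of 6.71, and the 2 arrays of control 1 held its lowest and highest values, 6.62 and 6.79. Vwf and Clec1b were not analysed here.

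**Figure D3:**
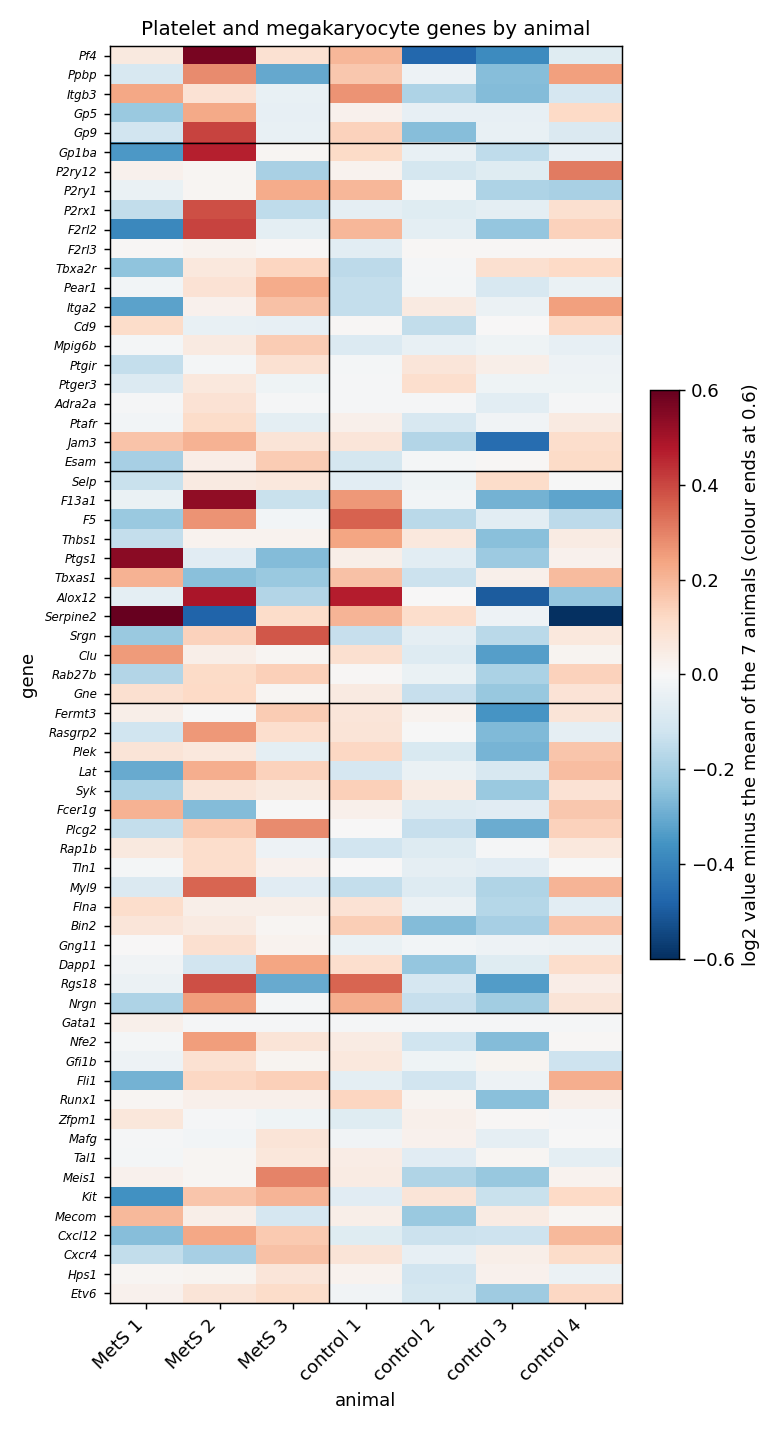
Rows are the 5 platelet genes of the list and the 60 others by list, columns are the 7 animals, and colour is the log2 value minus the gene's mean over the animals. Black lines part the lists and the groups. MetS animal 2 is the highest animal in 21 of the 60 other genes and control 3 the lowest in 22.

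Within the 60 genes, MetS animal 2 was the highest animal for 35.0% and MetS animal 3 for 28.3%, against 15.6% and 11.7% of all probes. Control 3 was the lowest animal for 36.7%, against 20.9% of all probes, and control 2 for 11.7% against 18.7%. The average of the 60, centred in the same way, was -0.03, 0.09 and 0.04 in MetS animals 1 to 3 and 0.04, -0.06, -0.12 and 0.03 in controls 1 to 4. MetS animal 2 was again the highest and control 3 the lowest, while control 1 did not stand out from MetS animal 3 and control 4.

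Markers of other blood cells moved along with these genes in part. Of 9 measured red cell genes, 8 had the higher mean in MetS, beside 8995 of 14497 measured genes. In limma 5 had an unadjusted p under 0.05, all of them higher, against 3.82% of probes higher at that p. The groups did not overlap for 3 of the 9, against 11.7% of all probes. None passed the adjusted test in limma (smallest adjusted p = 0.33). Hbb, the β-globin gene, stood at 13.30 ± 0.09 against 13.01 ± 0.17 and Hba-a3, an α-globin gene, at 11.16 ± 0.12 against 10.47 ± 0.51. The mean level of the red cell list lay between 8.999 and 9.26 in MetS and between 8.49 and 9.02 in controls, with controls 2 and 3 lowest. The lowest platelet levels were in controls 2 and 3 as well, but control 1 was high for platelet genes at 0.16 and near the average for red cell genes at -0.04. Rhag alone of the red cell genes lay below the 25th percentile of probe means. The part of red cell content in the platelet values was not tested.

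The 13 neutrophil genes averaged 8.12 to 8.48 in MetS and 8.14 to 8.43 in controls, with 6 higher, 7 lower and none past an unadjusted p under 0.05. By animal this list was high and low in the same animals as the platelet genes for MetS animal 2 and control 1, at 0.18 and 0.13 after centring, and for controls 2 and 3, at -0.16 and -0.12, but it was lowest in MetS animal 1, at -0.17. Of the 13, the nearest to that threshold were Cxcr2 at 9.42 ± 0.21 against 9.02 ± 0.31 and S100a9 at 11.05 ± 0.22 against 10.87 ± 0.07. The 10 endothelial genes averaged 10.39 to 10.74 in MetS and 10.52 to 10.69 in controls, with 8 higher and 2 lower. Pecam1, shared by platelets and endothelium, stood at 11.49 ± 0.18 against 11.36 ± 0.15 and Ramp2 at 11.42 ± 0.17 against 11.32 ± 0.10. The 8 alveolar macrophage genes averaged 8.99 to 9.56 in MetS and 9.14 to 9.39 in controls, with 2 higher and 6 lower. As a list they were lowest in MetS animal 2, the animal with the highest platelet level. Their nearest were Marco at 7.20 ± 0.01 against 7.30 ± 0.17 and Csf2ra at 9.40 ± 0.24 against 9.46 ± 0.15. The 9 mast cell genes averaged 6.99 to 7.40 in MetS and 6.95 to 7.51 in controls, with 6 higher and 3 lower. Ms4a2, a chain of the IgE receptor, stood at 7.00 ± 0.20 against 7.28 ± 0.13 and Tpsab1 at 6.90 ± 0.16 against 6.71 ± 0.11. Of the 10 epithelial genes, 6 had the higher and 4 the lower mean in MetS, with a median log2 difference of 0.004. The 2 with the smallest p were both higher, Sftpd at 12.18 ± 0.06 against 11.95 ± 0.16 and Abca3 at 10.89 ± 0.04 against 10.81 ± 0.06. The part of these cells in the platelet values was not tested.

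**Figure D4:**
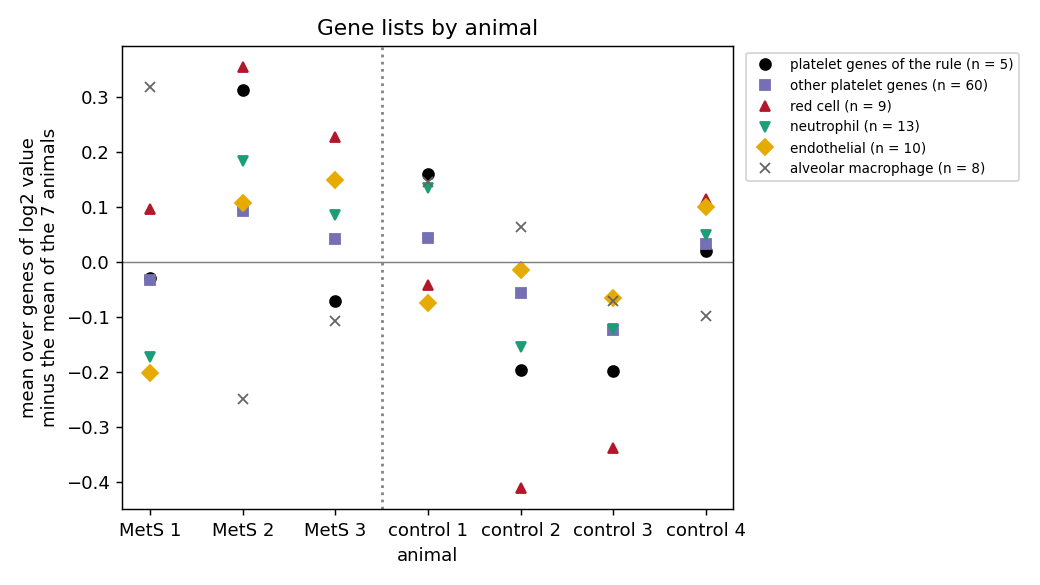
The y axis is the mean over the genes of a list of the log2 value minus the gene's mean over the 7 animals, and the x axis is the animal. The platelet genes of the list are highest in MetS animal 2, at 0.31, and lowest in controls 2 and 3, at -0.20 each; the red cell genes are also highest and lowest in those animals.

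The Pf4 difference kept its sign but changed in size when animals were left out or the SD of each animal was in the fit. It was 0.25 without MetS animal 2 and 0.55 without control 1, where the unadjusted p was 0.0194 and the adjusted p 0.333 (limma). Without controls 2 and 3 together it was 0.18. With the SD over all probes of each animal as a covariate it was 0.12, with a standard error of 0.247. That SD was 1.88 to 1.93 in the MetS animals and 1.76 to 1.88 in the controls, so group and SD cannot be fully told apart.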

How the data were processed

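Lung RNA of 7 rats was hybridised to 9 arrays, and the deposited table holds log2 expression values, 1 row per probe (transcript cluster) and 1 column per array. Per the submitters' processing notes, the tools were R 2.11.0, RMA and limma, whose roles are not stated. No source used here names a genome build. That the scale is log2 was read from RMA and from the values, between 2.69 and 14.16; it is not stated. Any centring beyond near-equal medians is unknown.

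Arrays of an animal were averaged. Groups were compared with lmFit and eBayes (limma 3.58.1, R 4.3.3), MetS minus control, over all 28826 probes with Benjamini-Hochberg adjustment and a threshold of 0.05. Single-gene probes (15209; 306 name several genes and 13311 none) were named through the platform annotation, with symbols updated through RefSeq gene identifiers (GRCr8). The brightest probe stood for a gene. Tested on simulated data for MetS against control with 28826 probes, the fit recovered 84% of log2 changes of 1 and 93% of 2, with 3 false calls. The simulated noise was independent between probes. Changes as small as those of the platelet genes, at most 0.42, were not simulated, so their recovery is not known. Intervals are at 95%. Correlations used Python 3.11.15, numpy 2.4.6 and exact permutation over 5040 pairings.

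The members and lists were chosen with earlier results of these data known. Named were the 5 list genes with a probe, in each of 4 platelet lists the 2 smallest p in each direction, 6 measured genes whatever their value, the 2 smallest p of each marker list and the 5 genes most like the members. The labels do not say whether animals shared a litter or a cage. Alternatives are listed in the closing section. A protein comparison planned for the members was not made, as protein sequences were not used here.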

Additional observations from a re-analysis of the deposited data

Results flagged for a closer look

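Among 42 genes checked, 1 had a control animal set apart from the other 3 by Dixon's criterion at its 95% level, which about 5% of groups pass by chance. Gata1 read 6.705 in control 1 against 6.708 in each of the other controls (values to 4 digits), and 6 of its 9 arrays held that same value. With the other 3 controls tied, any departure of control 1, however small, meets the criterion. The flag thus does not show that this animal was far off. The value of control 1 is the mean of its 2 arrays, which read 6.62 and 6.79. None of the 5 platelet genes met the criterion.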

How the results depend on the processing

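Each value was computed under 18 alternatives: first arrays only, all 9 arrays with a random animal block, quantile normalization repeated, median centring, 2 probe filters, other moderation, array weights, the replicate block, the SD of each animal as a covariate, each animal left out, and controls 2 and 3 left out. In all 18, 0 platelet genes of the list and 0 of the 60 others passed the adjusted test. Pf4 kept its direction in all 18, between 0.12 and 0.55. Itgb3 turned to -0.069 with the SD in the fit, where the median of the 5 differences also moved from 0.14 to -0.069 and Ppbp from -0.07 to -0.38 (limma, unadjusted p = 0.0929); the cause was not tested. Without controls 2 and 3 Itgb3, then also the median of the 5, was 0.0082, and with array weights 0.055. Gp5 turned to 0.0048 with array weights and to 0.0086 with the replicate block. The replicate block left out control 4, which has no MetS animal of its number. Its 5 differences equal those with control 4 left out alone, so this turn of Gp5 comes from leaving out control 4. Leaving out 1 animal gave Pf4 0.25 to 0.55, Ppbp -0.23 to 0.061, Itgb3 0.09 to 0.28, Gp5 -0.15 to 0.077, Gp9 -0.018 to 0.24 and a median of the 5 from -0.018 to 0.21. The largest Itgb3 difference was without control 1 (limma, unadjusted p = 0.0252, adjusted p = 0.333). Signs turned for Gp5 without MetS animal 1 or control 4, for Gp9 without MetS animal 2 and for Ppbp without MetS animal 3. The labels link same-numbered animals of the 2 groups by number alone, and whether they shared anything else is not stated. Their deviations correlated at 0.328, -0.0444 and 0.213 over all probes, which cannot settle it. The replicate block left 0 platelet genes called. The mean of several probes was not run, as each gene had 1. The 7 animals limit precision: the 95% interval of Pf4 spans -0.04 to 0.88.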
